A study of Homo sapiens with 27 samples.

Results

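The 37 genes described here encode the enzymes of the tricarboxylic acid (TCA) cycle and the proteins through which pyruvate enters it. They were chosen by gene symbol from the 20268 genes of the deposited count table. The list holds the cycle enzymes, the pyruvate dehydrogenase complex and its kinases and phosphatases with PDK1 left out, the mitochondrial pyruvate carrier, pyruvate carboxylase, mitochondrial phosphoenolpyruvate carboxykinase and the malic enzymes. No measured value entered the choice, but it was made with earlier results of these data known.

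RNA was sequenced from 3 human prostate cancer cell lines, LNCaP (hormone-sensitive), LNCaP95 (an LNCaP derivative that grows without androgen) and 22Rv1 (hormone-insensitive), to compare cells with and without knockdown of CPSF1. CPSF1 is a subunit of the complex that recognises the polyadenylation signal of nascent mRNAs. Each line was transduced with a lentivirus that carried a control hairpin (CTRL sh) or a hairpin that targets CPSF1 (CPSF1 sh1 or CPSF1 sh2), and selected with puromycin, so that all groups share the transduction and the selection. The cells were expanded as infected pools, and 500000 cells per well were grown for 72 h in RPMI 1640 with 10% fetal bovine serum. The medium of LNCaP95 cells, unlike that of LNCaP and 22Rv1 cells, held no phenol red, so for LNCaP95 the line and the medium cannot be told apart. Each of the 9 groups had 3 biological replicates, which gave 27 libraries. It was not stated whether these came from separate infections, so p-values measure the spread between these samples.

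Pyruvate made by glycolysis enters mitochondria through the MPC1-MPC2 carrier, and the pyruvate dehydrogenase complex converts it to acetyl-CoA, which citrate synthase joins to oxaloacetate. Pyruvate dehydrogenase kinases switch the complex off by phosphorylation, phosphatases switch it on again, and pyruvate carboxylase offers pyruvate another way in, as oxaloacetate. Normal luminal prostate cells are known for secreting citrate in place of oxidising it, a trait that prostate cancer cells lose.

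The libraries held between 8515624 and 15904518 counts on genes, with a median of 11058723. CPSF1 itself fell in each line, from 150 to 152 CPM with CTRL sh to 85.5 to 107 CPM with CPSF1 sh in LNCaP cells, from 95.7 to 126 CPM to 56.5 to 67.8 CPM in LNCaP95 cells and from 182 to 189 CPM to 111 to 142 CPM in 22Rv1 cells. CPM are counts scaled to 1e6 per library after TMM adjustment over all 27 libraries, and levels below are on this scale unless another is named. The luminal markers HOXB13 and FOLH1 were abundant in every line, at 340.4 CPM or more and 240.8 CPM or more in each library. The luminal markers KLK3 and TMPRSS2 were far lower in 22Rv1 cells than in the other lines. KLK3 went with knockdown from 1069 to 1142 CPM to 315 to 404 CPM in LNCaP, from 1993 to 2022 CPM to 943 to 1129 CPM in LNCaP95 and from 37.4 to 42.6 CPM to 48.1 to 57.3 CPM in 22Rv1 cells, and TMPRSS2 from 602 to 630 CPM to 405 to 427 CPM, from 915 to 985 CPM to 247 to 403 CPM and from 45.8 to 49.6 CPM to 29.7 to 34.2 CPM. With knockdown KLK2 fell from 288 to 304 CPM to 251 to 273 CPM in LNCaP. In LNCaP95 it fell from 311 to 336 CPM to 225 to 264 CPM. Its 22Rv1 groups overlapped, at 98.4 to 102 CPM and 90.3 to 112 CPM. HOXB13 fell in LNCaP from 574 to 604 CPM to 462 to 495 CPM. In LNCaP95 HOXB13 rose from 340 to 382 CPM to 423 to 447 CPM. The HOXB13 groups overlapped in 22Rv1, at 414 to 427 CPM and 412 to 488 CPM. Since these are bulk samples, fewer cells that express a gene and less RNA per cell cannot be told apart.

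Of the markers of other cell types, the basal KRT5 and TP63, the stromal COL1A2 and the leukocyte markers PTPRC and CD3E were at 0.382 CPM or less in every library, and the stromal marker DCN was at 0 in LNCaP and LNCaP95 and at 1.36 CPM or less in 22Rv1 cells. The other markers carried each list's summed level. The leukocyte sum, nearly all of it CD68, went with knockdown from 2.99 to 3.60 CPM to 9.97 to 17.8 CPM in LNCaP, from 6.38 to 9.38 CPM to 16.2 to 34.5 CPM in LNCaP95 and from 0.952 to 1.65 CPM to 1.85 to 7.22 CPM in 22Rv1 cells. The basal sum, mostly KRT14, went from 1.26 to 2.11 CPM to 3.76 to 6.24 CPM in LNCaP and from 1.64 to 3.01 CPM to 2.43 to 5.97 CPM in LNCaP95, and was 0.477 CPM or less in 22Rv1 cells. The stromal sum, mostly COL1A1, went from 21.9 to 26.1 CPM to 13.4 to 16.5 CPM in LNCaP and from 55.3 to 72.1 CPM to 42.4 to 58.2 CPM in LNCaP95, and was 11.6 to 14.3 CPM in 22Rv1 cells. The endothelial marker VWF went from 22.3 to 28.0 CPM to 9.23 to 12.6 CPM in LNCaP and from 0.675 to 1.24 CPM to 1.69 to 4.32 CPM in LNCaP95, and was 0.292 CPM or less in 22Rv1 cells. These markers thus moved with knockdown, and their part in the results below was not tested.

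The library of LNCaP CPSF1 sh1 replicate 3 stood apart. There were 91 genes above 10 CPM in all 22Rv1 libraries and at 0.3 CPM or less in the LNCaP95 and LNCaP CTRL sh libraries, and all 91 had counts in this library, at a median of 6.45% of their 22Rv1 level. In the other LNCaP CPSF1 sh libraries 31 to 45 of them had a count, and the median was 0%. The LNCaP CTRL sh libraries, where 23 to 25 had a count, were low by the choice of these genes. The members PDK4, which is among the 91, and ME3, which is not, had 39 and 6 counts in this library. That is 6.98% of the 22Rv1 level for each. The knockdown tests of the LNCaP members are therefore given with this library and, as "without sh1 replicate 3", without it. Among the 22Rv1 libraries, CPSF1 sh1 replicate 3 differed more from its replicates than these did from each other, with a chi-square over its degrees of freedom of 7.31 and 4.56 against 1.97 (1 for counting error alone). The LNCaP95 CTRL sh libraries were also spread, with 5.22 between replicates 1 and 2 and 2.87 and 2.97 for their pairs with replicate 3.

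With CTRL sh, the members differed in level between genes far more than between lines. Levels between genes are given here as CPM per kb of the deposited exon length, which counts every annotated exon of a gene. Malate dehydrogenase MDH2 and citrate synthase CS were among the 3 highest in each line, at 142 ± 3.17 and 135 ± 6.19 CPM per kb in LNCaP (mean ± SD, n = 3), 155 ± 7.28 and 127 ± 2.68 for LNCaP95 and 171 ± 1.00 and 189 ± 2.51 for 22Rv1 cells. The phosphatase PDP1 stood near the lower end in each line, at 3.07 ± 0.213, 4.53 ± 0.281 and 3.22 ± 0.231 CPM per kb.

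**Figure D1:**
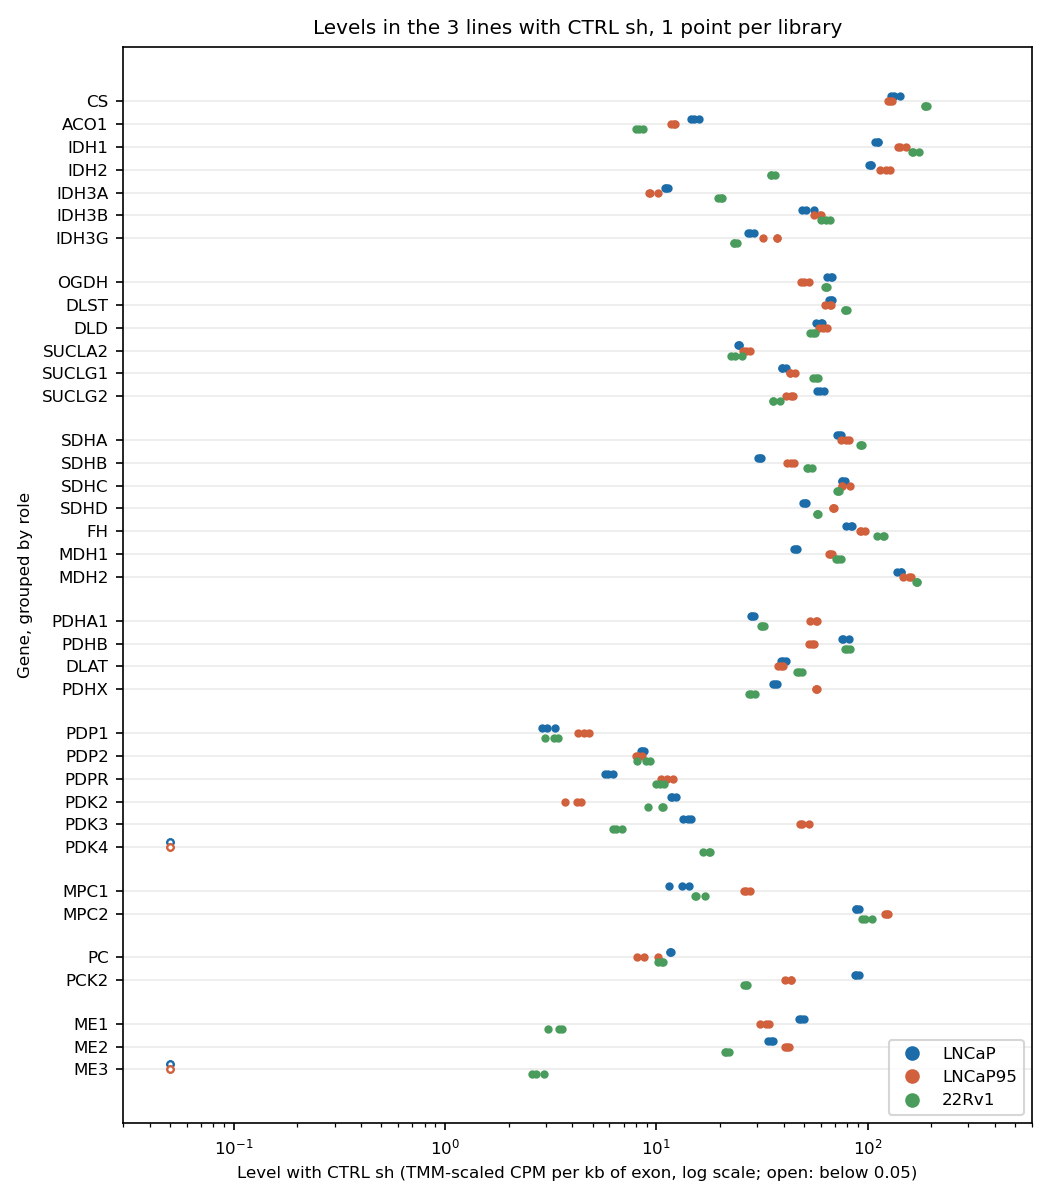
Levels of the 37 members with CTRL sh in LNCaP, LNCaP95 and 22Rv1 cells, grouped by role, 1 point per library, in TMM-scaled CPM per kb of exon on a log axis, with open points for libraries below 0.05. Most members lie within a narrow band across lines, while ME1 is low in 22Rv1, PDK3 is high in LNCaP95, and PDK4 and ME3 appear in 22Rv1 cells.

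Between control groups, nearly all members passed the test, as most genes did. Of 35 members tested, 29 differed between LNCaP95 and LNCaP (80.5% of all genes), 30 between 22Rv1 and LNCaP (82.7%) and 33 between 22Rv1 and LNCaP95 (84.5%). The largest difference belonged to ME1, the cytosolic malic enzyme. It stood at 164, 160 and 169 CPM in the LNCaP CTRL sh libraries, 105, 112 and 116 CPM in LNCaP95 and 11.6, 10.4 and 12.1 CPM in 22Rv1. The 22Rv1 libraries were thus below all others, by -3.87 on the log2 scale against LNCaP and -3.29 against LNCaP95. PCK2 fell in the same order from 326 to 342 CPM in LNCaP and 152 to 163 CPM in LNCaP95 to 97.2 to 101 CPM in 22Rv1, without overlap (log2 differences of -1.08 for LNCaP95 and -1.76 for 22Rv1 against LNCaP). IDH3A, the catalytic subunit of the NAD-dependent isocitrate dehydrogenase, was highest in 22Rv1 cells, at 116 to 121 CPM against 65.3 to 67.4 CPM in LNCaP (log2 difference 0.82) and 54.8 to 60.0 CPM in LNCaP95 (1.07). PDPR, the regulatory subunit of the pyruvate dehydrogenase phosphatase, was higher in both LNCaP95 (0.90) and 22Rv1 (0.79) than in LNCaP cells, where it stood at 51.7 to 56.4 CPM. MPC1 was higher in LNCaP95 than in LNCaP by 1.02. PDPR and SDHA have near-identical copies elsewhere in the genome, so that their counts are less certain.

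PDK4 and ME3 were expressed in 22Rv1 cells, at 59.3, 64.5 and 63.5 CPM and at 10.8, 9.91 and 9.41 CPM with CTRL sh. In LNCaP CTRL sh libraries neither had a count. Set against a floor of 3 counts over the 3 LNCaP libraries, PDK4 was at least 701-fold and ME3 at least 113-fold higher in 22Rv1 cells, and ME3 at least 122-fold higher than in LNCaP95 cells, where it had no count either. PDK4 had 1 count over the 3 LNCaP95 CTRL sh libraries. Both genes were too low to be tested for knockdown in LNCaP and LNCaP95 cells.

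For CPSF1 knockdown, the 6 CPSF1 sh libraries of each line were compared with its 3 CTRL sh libraries by edgeR's quasi-likelihood test over all genes above 2 CPM in each library, with Benjamini-Hochberg adjustment and a threshold of 0.05. Changes below are log2 fold changes ± SE from this test, with adjusted p-values. In LNCaP cells 16 of 35 members were higher (31.1% of all genes tested) and 9 lower (31% of all genes), or 25 of 35 in either direction (62.1% of all genes), with a median change of 0.03 over the members. Without sh1 replicate 3 the counts were 16 and 8, since IDH2 no longer passed (-0.08, adjusted p = 0.055). In LNCaP95 cells 7 of 35 were higher (33.2% of all genes) and 20 lower (33.7% of all genes), or 27 in either direction (66.9% of all genes), with a median change of -0.15. With scaling by library size alone, which moved the median of all genes from 0.00 to 0.09, the LNCaP95 counts were 12 higher and 14 lower. In 22Rv1 cells 4 of 37 were higher (12.7% of all genes) and 11 lower (14.3% of all genes), or 15 in either direction (26.9% of all genes), with a median of -0.03. The 4 higher members in 22Rv1 cells became 2 without CTRL sh replicate 1 or 2, 7 without CPSF1 sh1 replicate 3, 2 when sh1 alone was set against CTRL sh and 9 when only sh2 was. The median over all genes tested lay at 0.00 in each of the 3 lines, and the members' changes ran from -0.81 to 0.52, from -0.70 to 0.73 and from -0.70 to 0.30.

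All 6 CPSF1 sh libraries lay below the 3 CTRL sh libraries for 10 members in LNCaP (29.1% of all genes), 18 in LNCaP95 (29.6%) and 12 in 22Rv1 cells (15.1%). They lay above for 15 members in LNCaP (26.7%), 8 for LNCaP95 (30.4%) and 6 for 22Rv1 cells (13.1%). Without sh1 replicate 3, 10 LNCaP members lay below (30.8% of all genes) and 15 above (27.6%). Fumarase FH and DLST, the succinyltransferase of the 2-oxoglutarate dehydrogenase complex, passed the test in none of the lines, with changes between -0.06 and 0.03. DLST was nonetheless among the 10 members that lay below in LNCaP, and passed there with CPSF1 sh1 alone (-0.09, adjusted p = 0.0464). FH passed in LNCaP95 with library size scaling (0.10, adjusted p = 0.0488).

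**Figure D2:**
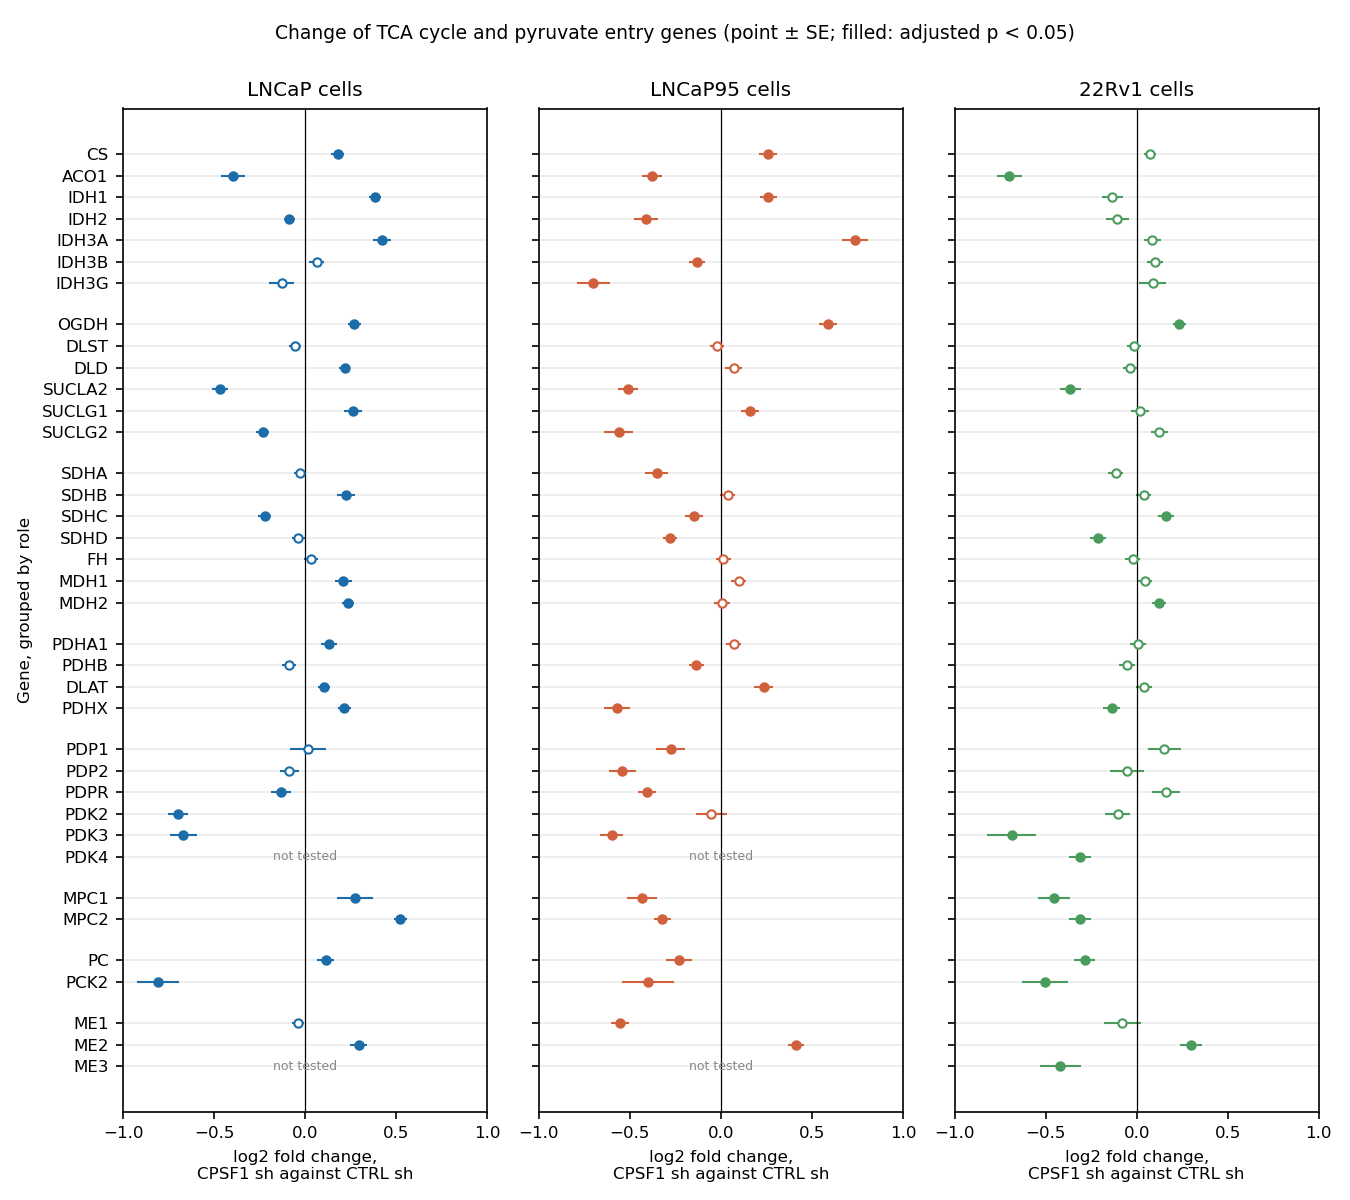
Log2 fold change ± SE of each member with CPSF1 sh against CTRL sh in the 3 lines, grouped by role, with filled points at an adjusted p-value below 0.05. PDK3, ACO1, SUCLA2 and PCK2 lie left of 0 and OGDH and ME2 right of 0 in each panel, while MPC1 and MPC2 lie right of 0 in LNCaP and left of 0 in LNCaP95 and 22Rv1 cells.

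Of the 35 members tested in all lines, 4 were lower in each of the 3 lines (4.9% of all genes), namely PDK3, ACO1, SUCLA2 and PCK2. Higher in each line were 2 members (3.85% of all genes), OGDH and ME2. In hg19, PDK3 lies at chrX:24483338-24557954, ACO1 at chr9:32384618-32454767, SUCLA2 at chr13:48510622-48612125, PCK2 at chr14:24563262-24579807, OGDH at chr7:44646171-44748665 and ME2 at chr18:48405419-48474691. The 100 bases before the RefSeq start site of those with a promoter entry, in build GRCh38.p14, are shown because these genes were called in 1 direction in all lines, PDK3, ACO1, SUCLA2 and PCK2 lower and ME2 higher. Capitals mark ACGTG and GCGTG on either strand, the 2 forms of the core that hypoxia-inducible factors bind.
PDK3 (chrX:24465186-24465285, plus strand): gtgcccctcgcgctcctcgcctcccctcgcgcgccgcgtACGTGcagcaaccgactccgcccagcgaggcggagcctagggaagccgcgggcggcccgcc
ACO1 (chr9:32384543-32384642, plus strand): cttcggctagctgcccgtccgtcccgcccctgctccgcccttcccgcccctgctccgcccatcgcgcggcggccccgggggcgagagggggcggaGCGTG
SUCLA2 (chr13:48001274-48001373, minus strand): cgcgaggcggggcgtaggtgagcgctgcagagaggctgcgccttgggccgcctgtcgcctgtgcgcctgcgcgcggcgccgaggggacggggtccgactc
PCK2 (chr14:24094211-24094310, plus strand): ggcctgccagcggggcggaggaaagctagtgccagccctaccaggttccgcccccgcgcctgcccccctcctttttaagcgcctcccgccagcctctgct
ME2 (chr18:50879018-50879117, plus strand): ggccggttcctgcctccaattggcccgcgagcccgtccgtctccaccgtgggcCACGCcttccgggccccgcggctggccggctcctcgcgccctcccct
ACGTG stood in the PDK3 window and GCGTG in those of ACO1 and ME2, while the windows of SUCLA2 and PCK2 held neither. Over the longer RefSeq windows of 250 bases before to 50 after the start, searched on both strands, 12 of 47 windows of 34 members held ACGTG (25.5%, against 21.4% of all 35116 windows) and 27 held GCGTG (57.4%, against 36.5%). TGATGNAA, the element that ATF4 and CEBP proteins bind, was in no member's window (3.62% of all), and CGCATGCG, the core bound by NRF1, was in that of SDHD (2.02% of all).

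PDK3 encodes a kinase that switches off pyruvate dehydrogenase. In LNCaP cells PDK3 stood at 38.1, 39.4 and 36.0 CPM with CTRL sh, at 23.6, 24.2 and 21.6 with CPSF1 sh1 and at 20.9, 26.4 and 24.6 with CPSF1 sh2. In LNCaP95 cells it stood at 142, 129 and 132 CPM, then at 90.9, 93.8 and 97.2 with sh1 and at 86.6, 79.3 and 84.4 with sh2. In 22Rv1 cells the values were 16.8, 17.3 and 18.5 CPM, then 14.6, 11.1 and 7.80 with sh1 and 11.3, 10.0 and 10.4 with sh2. Every CPSF1 sh library lay below every CTRL sh library of its line, and the sh1 libraries of 22Rv1 were the most spread. The changes were -0.67 ± 0.07 in LNCaP (adjusted p = 1.67e-06; -0.64 without sh1 replicate 3), -0.60 ± 0.06 in LNCaP95 (3.71e-06) and -0.69 ± 0.14 in 22Rv1 cells (0.00221). The difference of this change between lines passed the test for none of the 3 pairs.

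ACO1 is the cytosolic aconitase, which also acts as an iron regulatory protein. With CTRL sh it stood at 120, 110 and 114 CPM in LNCaP, 92.6, 88.9 and 90.9 for LNCaP95 and 62.7, 64.9 and 60.7 for 22Rv1 cells. With CPSF1 sh1 the values were 90.9, 98.7 and 89.7 CPM, 73.6, 72.1 and 74.5 CPM, and 42.1, 43.5 and 39.0 CPM. With CPSF1 sh2 they were 79.9, 80.9 and 79.4 CPM, 68.3, 68.7 and 63.2 CPM, and 35.3, 35.8 and 36.4 CPM. In each line the order was CTRL sh, then sh1, then sh2, without overlap between the 3 groups. The fall was -0.40 ± 0.06 in LNCaP (adjusted p = 7.65e-05; -0.41 without sh1 replicate 3), -0.38 ± 0.05 in LNCaP95 (5.39e-05) and -0.70 ± 0.07 in 22Rv1 cells (1.93e-05). It was larger in 22Rv1 than in LNCaP cells by -0.29, and larger than in LNCaP95 cells by -0.33. The difference from LNCaP missed the threshold without LNCaP CTRL sh replicate 2 (adjusted p = 0.0524) or without 22Rv1 CTRL sh replicate 2 (0.0513).

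SUCLA2 encodes the ATP-specific beta subunit of succinyl-CoA ligase. It stood at 92.0, 93.5 and 93.0 CPM in LNCaP, 97.7, 105 and 100.2 for LNCaP95 and 89.0, 85.4 and 96.5 for 22Rv1 cells with CTRL sh. With CPSF1 sh, its 6 libraries ranged from 62.5 to 69.3 CPM in LNCaP, from 66.1 to 75.6 in LNCaP95 and from 63.0 to 74.3 in 22Rv1 cells. All 18 knockdown libraries were thus below all 9 control libraries, whatever the line. The changes were -0.47 ± 0.04 (adjusted p = 2.74e-07; -0.48 without sh1 replicate 3), -0.51 ± 0.05 (4.93e-06) and -0.37 ± 0.06 (0.000481), and did not differ between lines by the test (adjusted p = 0.83, 0.21 and 0.12 for the 3 pairs).

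PCK2, which makes phosphoenolpyruvate from oxaloacetate inside mitochondria, was the member that differed most between hairpins. In LNCaP cells it stood at 342, 326 and 330 CPM with CTRL sh, 161, 148 and 155 with sh1 and 229, 219 and 215 with sh2. In LNCaP95 cells the values were 162, 152 and 163 CPM, then 152, 141 and 141 with sh1 and 93.1, 101 and 95.4 with sh2. In 22Rv1 cells they were 101, 99.4 and 97.2 CPM, then 79.3, 77.4 and 92.1 with sh1 and 58.3, 57.5 and 56.4 with sh2. The sh1 libraries were the lowest in LNCaP and the sh2 libraries the lowest in LNCaP95 and 22Rv1 cells, and in LNCaP95 the highest sh1 library was level with the lowest CTRL sh library. The change over both hairpins was -0.81 ± 0.12 in LNCaP (adjusted p = 2.70e-05; -0.76 without sh1 replicate 3), -0.40 ± 0.14 in LNCaP95 (0.0264) and -0.50 ± 0.13 in 22Rv1 cells (0.0102). Fitted apart, sh1 gave -1.10, -0.14 and -0.26 and sh2 -0.58, -0.72 and -0.79 in the 3 lines. The call in LNCaP95 ended with library size scaling (adjusted p = 0.0829), with a block for the replicate number (0.0546) and without CTRL sh replicate 1 (0.0789), 2 (0.052) or 3 (0.0766).

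OGDH, the 2-oxoglutarate dehydrogenase itself, rose in each line. In LNCaP95 cells it stood at 250, 243 and 266 CPM with CTRL sh, at 375, 358 and 371 with sh1 and at 382, 389 and 415 with sh2. The LNCaP libraries held 335, 322 and 340 CPM with CTRL sh and 379 to 410 CPM with CPSF1 sh, and the 22Rv1 libraries 321, 320 and 315 CPM and 363 to 389 CPM. No CPSF1 sh library reached down to its controls. The rise was 0.27 ± 0.04 in LNCaP (adjusted p = 1.18e-05; 0.28 without sh1 replicate 3), 0.59 ± 0.05 in LNCaP95 (1.30e-06) and 0.23 ± 0.04 in 22Rv1 cells (0.00043), and was larger in LNCaP95 than in LNCaP cells by 0.34 and than in 22Rv1 cells by 0.36. Of its partners in the complex, DLST changed by -0.06, -0.02 and -0.02, below the threshold. In LNCaP, DLST passed it with CPSF1 sh1 alone (-0.09, adjusted p = 0.0464). The shared dihydrolipoamide dehydrogenase DLD rose in LNCaP cells (0.22 ± 0.03, and 0.22 without sh1 replicate 3) and changed by 0.07 in LNCaP95 cells, below the threshold there but past it with library size scaling (0.16, adjusted p = 0.00757) and with CPSF1 sh2 alone (0.11, 0.0336). The ratio of OGDH to DLST per kb went from 0.974 to 0.998 up to 1.18 to 1.32 in LNCaP, from 0.747 to 0.798 up to 1.12 to 1.28 in LNCaP95 and from 0.794 to 0.817 up to 0.933 to 1.00 in 22Rv1 cells.

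ME2, a mitochondrial malic enzyme that makes pyruvate from malate, also rose in each line. Its CTRL sh libraries held 110, 106 and 113 CPM in LNCaP, 134, 129 and 132 for LNCaP95 and 67.1, 70.2 and 67.7 for 22Rv1 cells. With CPSF1 sh the ranges were 122 to 142, 169 to 185 and 77.6 to 89.9 CPM. No knockdown library overlapped its controls, and in 22Rv1 cells the sh2 libraries (88.9 to 89.9 CPM) were above the sh1 libraries (77.6 to 80.9 CPM). The rise was 0.29 ± 0.05 (adjusted p = 6.02e-05; 0.30 without sh1 replicate 3), 0.41 ± 0.04 (3.65e-06) and 0.30 ± 0.06 (0.00258). The other malic enzymes moved otherwise. ME1 fell in LNCaP95 cells by 0.55 on the log2 scale, from 105 to 116 CPM down to 72.2 to 80.1 CPM, and changed by -0.04 in LNCaP and -0.08 in 22Rv1 cells, below the threshold. ME3 was tested in 22Rv1 cells alone and fell there from 9.41 to 10.8 CPM to 6.28 to 8.98 CPM (-0.42 ± 0.11, adjusted p = 0.0138), a call that ended without CTRL sh replicate 1 (0.0879).

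**Figure D3:**
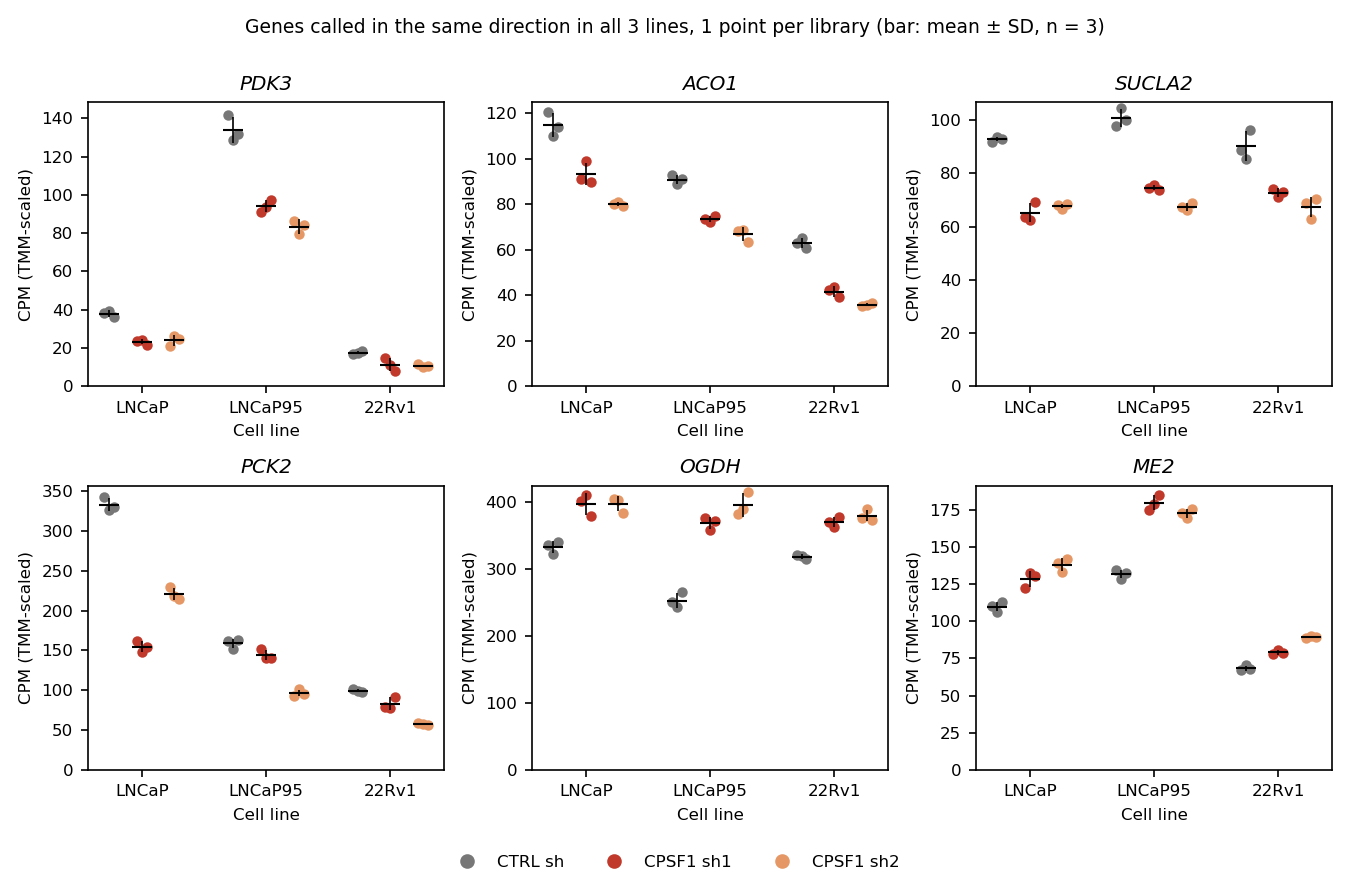
Level of the 6 members called in the same direction in all 3 lines, in TMM-scaled CPM, 1 point per library, with bars for mean ± SD (n = 3) and colours for CTRL sh, CPSF1 sh1 and CPSF1 sh2. The CTRL sh points lie above the knockdown points of their line for PDK3, ACO1, SUCLA2 and PCK2, with contact for PCK2 in LNCaP95, and below them for OGDH and ME2.

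The carrier that brings pyruvate into mitochondria moved in opposite directions in LNCaP and in the hormone-insensitive lines. MPC2 stood at 232, 224 and 225 CPM with CTRL sh in LNCaP cells, at 334, 314 and 317 with sh1 and at 339, 313 and 325 with sh2. In LNCaP95 cells it went from 314, 309 and 318 CPM to 232, 243 and 250 with sh1 and 259 to 266 with sh2. In 22Rv1 cells it went from 241, 249 and 267 CPM to 212, 211 and 224 with sh1 and 188, 198 and 188 with sh2. The groups did not overlap in any line, with the knockdown libraries above the controls in LNCaP and below them in LNCaP95 and 22Rv1 cells. The changes were 0.52 ± 0.04 (adjusted p = 2.40e-08; 0.53 without sh1 replicate 3), -0.32 ± 0.05 (8.46e-05) and -0.31 ± 0.06 (0.00154).

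MPC1, the partner of MPC2 in the carrier, was the lower of the pair. In LNCaP cells it held 20.2, 18.6 and 16.3 CPM with CTRL sh, 19.8, 22.6 and 25.8 with sh1 and 21.5, 19.1 and 23.1 with sh2, and here the groups overlapped. In LNCaP95 cells it went from 36.5, 39.1 and 37.3 CPM to 29.9, 30.0 and 30.8 with sh1 and 27.5, 24.9 and 24.3 with sh2. In 22Rv1 cells it went from 21.6, 21.5 and 24.1 CPM to 18.8, 14.6 and 17.1 with sh1 and 15.2, 15.6 and 16.6 with sh2. Both hormone-insensitive lines showed a full separation of the groups. The changes were 0.27 ± 0.10 in LNCaP (adjusted p = 0.0275), -0.43 ± 0.08 in LNCaP95 (0.000435) and -0.46 ± 0.09 in 22Rv1 cells (0.00198). The LNCaP value was 0.22 without sh1 replicate 3 (adjusted p = 0.047), and its call ended without CTRL sh replicate 2 (0.28, adjusted p = 0.065), CTRL sh replicate 3 (0.19, 0.159) or CPSF1 sh2 replicate 3 (0.25, 0.0514).

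Within the pyruvate dehydrogenase complex, PDHX, which tethers dihydrolipoamide dehydrogenase to the core, followed a like pattern. Its CTRL sh libraries held 128, 125 and 122 CPM in LNCaP, 196, 194 and 194 for LNCaP95 and 93.8, 96.3 and 99.9 for 22Rv1 cells. With sh1 the values were 141, 150 and 140 CPM, 135, 151 and 143 CPM, and 93.0, 89.8 and 85.7 CPM, and with sh2 they were 144, 144 and 144 CPM, 123, 117 and 120 CPM, and 89.6, 86.0 and 83.0 CPM. The knockdown libraries were above the controls in LNCaP, far below them in LNCaP95 and just below them in 22Rv1 cells. PDHX rose by 0.22 ± 0.04 in LNCaP (adjusted p = 0.000103; 0.22 without sh1 replicate 3) and fell by 0.57 on the log2 scale in LNCaP95 (2.18e-05). In 22Rv1 cells it changed by -0.14 ± 0.05 (0.0493), a call that ended under 14 of 21 alternatives, with adjusted p-values between 0.00299 and 0.249.

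The remaining core subunits had smaller changes. PDHA1, the alpha subunit of the decarboxylase, was higher in LNCaP (0.13 ± 0.05; 0.14 without sh1 replicate 3), a call that ended under 6 of 21 alternatives, among them without CTRL sh replicate 2 (adjusted p = 0.0826) or 3 (0.0649) and without CPSF1 sh2 replicate 2 (0.0554). Its partner PDHB was lower in LNCaP95 (-0.13 ± 0.04), a call that ended with library size scaling (-0.05, adjusted p = 0.33) and with CPSF1 sh2 alone (0.0555). In LNCaP cells PDHB changed by -0.09 (adjusted p = 0.0528) and was called under 7 of 21 alternatives. DLAT, the acetyltransferase of the core, was higher in LNCaP (0.10 ± 0.03, and 0.10 without sh1 replicate 3) and LNCaP95 cells (0.23 ± 0.05), and its LNCaP call ended without a filter on low counts (adjusted p = 0.0886) and without CTRL sh replicate 2 (0.0753). The other values of these 3 genes lay between -0.09 and 0.07.

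Pyruvate carboxylase PC was the 4th member called higher in LNCaP and lower in LNCaP95, which 4 of 35 members were (4.89% of all genes), while the reverse held for 0 members (4.64% of all genes). It stood at 68.6, 69.9 and 68.5 CPM with CTRL sh and 70.5 to 79.9 CPM with CPSF1 sh in LNCaP cells (0.11 ± 0.05, adjusted p = 0.0429; 0.13 without sh1 replicate 3). In LNCaP95 cells the values were 60.3, 48.0 and 51.8 CPM, against 41.4 to 47.8 CPM (-0.23 ± 0.07, adjusted p = 0.0127), and in 22Rv1 cells 63.0, 63.5 and 60.4 CPM, against 47.6 to 55.8 CPM (-0.29 ± 0.06, 0.0025). The LNCaP groups were separate by less than 1 CPM, and that call ended under 14 of 21 alternatives (adjusted p from 0.00579 to 0.259). The LNCaP95 call ended under library size scaling (0.0903) and without CTRL sh replicate 1 (0.117).

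The differences between lines were tested as interactions over all 27 libraries. For 20 of 35 members the effect of CPSF1 knockdown differed between LNCaP95 and LNCaP (50.9% of all genes), for 16 between 22Rv1 and LNCaP (40.4%) and for 17 between 22Rv1 and LNCaP95 (53.7%). Relative to LNCaP, 4 members had a higher change in LNCaP95 and 16 a lower one, or 9 and 12 with library size scaling. The 22Rv1 change was higher than that of LNCaP for 4 and lower for 12 members (4 and 11 without sh1 replicate 3), and higher than that of LNCaP95 for 11 and lower for 6, or 10 and 10 with library size scaling. Of all 10317 genes tested, 2759 had a higher change in LNCaP95 than in LNCaP and 2490 a lower one. For 22Rv1 against LNCaP these counts were 2104 and 2064, and for 22Rv1 against LNCaP95 2746 and 2798. The 3 comparisons share libraries. MPC2 had the largest difference from LNCaP in both, at -0.83 ± 0.07 for LNCaP95 (adjusted p = 9.38e-11) and -0.82 ± 0.07 for 22Rv1 (3.99e-10), followed by PDHX (-0.77 ± 0.08, 4.36e-09) for LNCaP95 and by MPC1 (-0.71 ± 0.14, 0.000134) for 22Rv1. For MPC1 and MPC2 the effects in LNCaP95 and 22Rv1 differed by -0.03 and 0.01, which did not pass the test (adjusted p = 0.87 and 0.95).

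**Figure D4:**
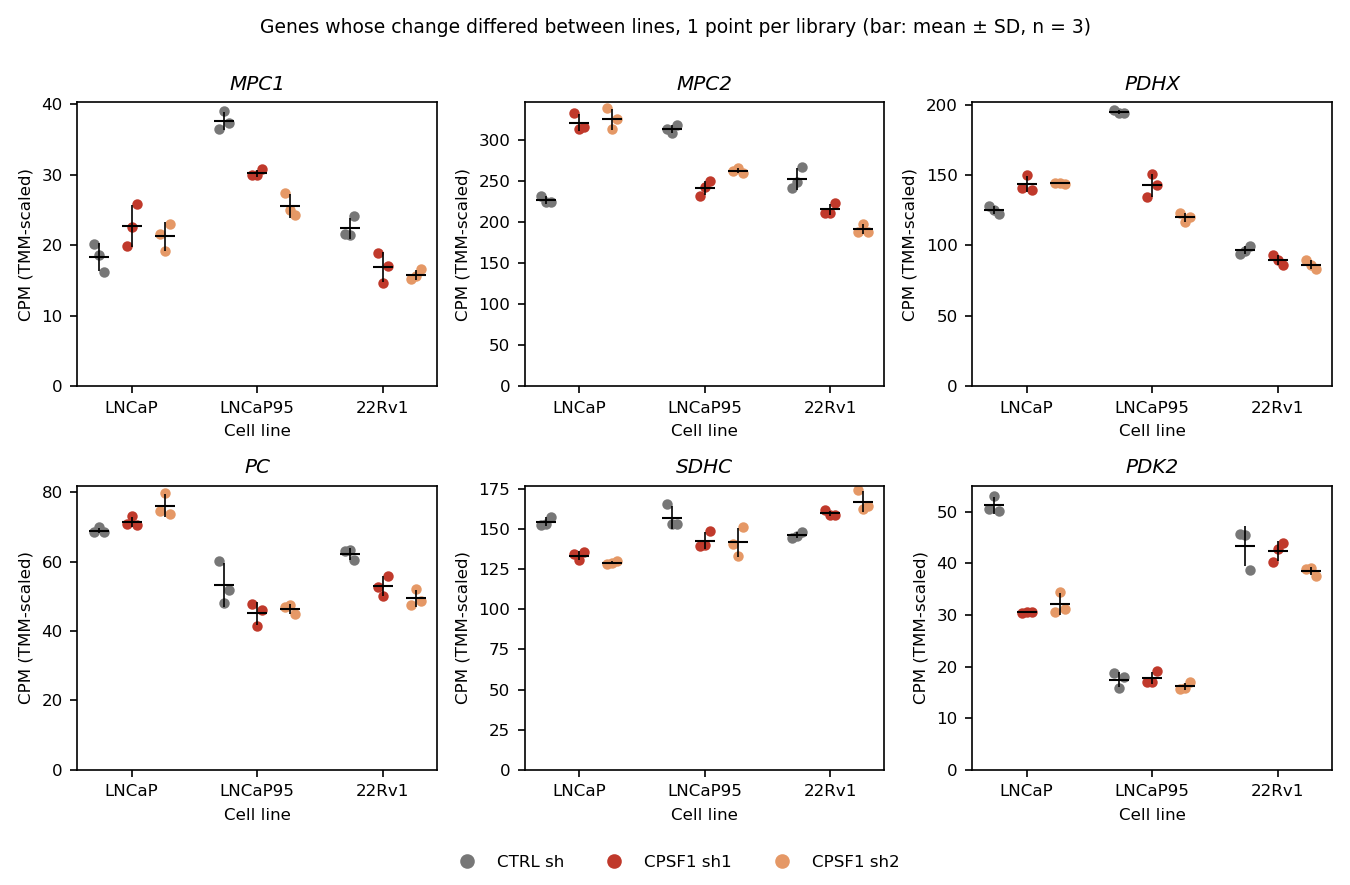
Level of 6 members whose change differed between lines by the interaction test, in TMM-scaled CPM, 1 point per library, with bars for mean ± SD (n = 3) and colours for CTRL sh, CPSF1 sh1 and CPSF1 sh2. MPC2 and PDHX rise in LNCaP and fall in LNCaP95 cells, SDHC falls in LNCaP and rises in 22Rv1 cells, and PDK2 falls in LNCaP cells while its points overlap in the other lines.

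Among the enzymes from citrate to 2-oxoglutarate, LNCaP cells had 3 of 7 higher (31.1% of all genes) and 2 lower (31%), LNCaP95 cells 3 higher (33.2%) and 4 lower (33.7%), and 22Rv1 cells 0 higher (12.7%) and 1 lower (14.3%), which was ACO1. CS rose by 0.18 ± 0.04 in LNCaP (0.18 without sh1 replicate 3) and 0.26 ± 0.05 in LNCaP95. The annotated exons of CS overlap those of RP11-977G19.10 on the same strand, so that its counts are less certain. The subunits of the NAD-dependent isocitrate dehydrogenase parted in LNCaP95 cells. IDH3A went there from 54.8, 60.0 and 55.0 CPM to 89.0, 87.1 and 87.1 with sh1 and 99.2, 103 and 103 with sh2, and its regulatory partner IDH3G from 102, 86.3 and 101 CPM to 68.6, 63.4 and 63.7 with sh1 and 51.2, 56.1 and 52.2 with sh2. IDH3A thus rose by 0.73 ± 0.07 (adjusted p = 2.82e-06) and IDH3G fell by 0.70 on the log2 scale (2.22e-05), the largest rise and the largest fall among the members of that line.

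In LNCaP cells IDH3A rose from 65.3 to 67.4 CPM to 83.4 to 94.4 CPM (0.42 ± 0.05, adjusted p = 2.69e-06; 0.41 without sh1 replicate 3), and IDH3G, at 73.7 to 78.7 CPM and 62.0 to 79.9 CPM, changed by -0.13 ± 0.07 with overlap of the groups (0.114). In LNCaP, IDH3G passed the threshold with CPSF1 sh2 alone (-0.24, adjusted p = 0.000136), with the hairpins as separate groups (0.0141) and without CPSF1 sh1 replicate 1 (0.0148). In 22Rv1 cells IDH3A and IDH3G each changed by 0.09, below the threshold. With CPSF1 sh2 alone IDH3A passed it there (0.13, adjusted p = 0.00785). The ratio of IDH3A to IDH3G per kb was 0.247 to 0.318 with CTRL sh and 0.594 to 0.901 with CPSF1 sh in LNCaP95, 0.392 to 0.406 and 0.478 to 0.697 in LNCaP, and 0.812 to 0.878 and 0.729 to 0.995 in 22Rv1 cells. IDH3B changed by 0.06, -0.13 and 0.10, and passed the test in LNCaP95, a call that ended under 5 of 21 alternatives, among them library size scaling (-0.04, adjusted p = 0.401) and without CTRL sh replicate 1 (0.0686) or 3 (0.0795). The 22Rv1 effect on IDH3G was higher than the LNCaP95 effect by 0.78 ± 0.12 (adjusted p = 4.62e-06).

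The NADP-dependent isocitrate dehydrogenases also parted. IDH1, the cytosolic enzyme, went in LNCaP cells from 365, 353 and 366 CPM to 457, 457 and 458 with sh1 and 483, 466 and 480 with sh2. It went in LNCaP95 cells from 455 to 492 CPM to 536 to 592 CPM, and in 22Rv1 cells from 526, 532 and 573 CPM to 524 to 535 CPM with sh1 and 458 to 466 CPM with sh2. The rise was 0.38 ± 0.03 in LNCaP (adjusted p = 1.76e-07; 0.39 without sh1 replicate 3) and 0.26 ± 0.05 in LNCaP95 (0.00034), and the change in 22Rv1 cells was -0.13 ± 0.06 (0.0977), with sh2 alone past the threshold there (-0.24). IDH2, the mitochondrial enzyme, fell by 0.41 on the log2 scale in LNCaP95, while its change was -0.09 ± 0.03 in LNCaP, a call that ended under 5 of 21 alternatives, and -0.11 ± 0.06 in 22Rv1 cells.

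From 2-oxoglutarate to succinate, the subunits of succinyl-CoA ligase were called in both directions in LNCaP and LNCaP95 cells. The shared alpha subunit SUCLG1 rose by 0.26 ± 0.05 (0.27 without sh1 replicate 3) and 0.16 ± 0.05, while both beta subunits, the ATP-specific SUCLA2 described above and the GTP-specific SUCLG2, fell. The SUCLG1 call in LNCaP95 ended under 6 of 21 alternatives (adjusted p from 0.000607 to 0.0803), among them without CTRL sh replicate 1 (0.0584) or 3 (0.0552). SUCLG2 went in LNCaP cells from 192, 184 and 179 CPM to 150 to 160 CPM and in LNCaP95 cells from 126, 137 and 134 CPM to 92.3, 101 and 103 with sh1 and 78.5, 83.0 and 81.5 with sh2. In 22Rv1 cells it held 110, 118 and 111 CPM with CTRL sh and 118 to 130 CPM with CPSF1 sh. The groups were apart in LNCaP and LNCaP95 and met in 22Rv1 cells. The changes were -0.23 ± 0.03 (adjusted p = 3.74e-05; -0.24 without sh1 replicate 3), -0.56 ± 0.08 (5.88e-05) and 0.12 ± 0.05 (0.0674), and the 22Rv1 effect was higher than the LNCaP95 effect by 0.68 ± 0.09 (1.98e-07). The ratio of SUCLG1 to SUCLA2 per kb rose from 1.59 to 1.68 with CTRL sh to 2.55 to 2.86 with CPSF1 sh in LNCaP, from 1.63 to 1.67 to 2.37 to 2.90 in LNCaP95, and from 2.29 to 2.53 to 2.85 to 3.35 in 22Rv1 cells.

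In the last stretch, from succinate to oxaloacetate, the subunits of succinate dehydrogenase moved by small amounts. The flavoprotein SDHA fell in LNCaP95 cells by 0.35 on the log2 scale, from 205 to 223 CPM down to 156 to 185 CPM. In 22Rv1 cells SDHA changed by -0.11 (adjusted p = 0.0548), below the threshold, although the groups did not overlap. It passed there under some alternatives, among them DESeq2 (0.0417), the hairpins as separate groups (0.0134) and CPSF1 sh2 alone (-0.16, 0.000198). The iron-sulfur subunit SDHB rose in LNCaP (0.22 ± 0.05; 0.24 without sh1 replicate 3). The membrane anchor SDHD fell in LNCaP95 (-0.28 ± 0.04) and 22Rv1 cells (-0.21 ± 0.04), and its annotated exons overlap those of TEX12, AP002884.3 and BCO2 on the same strand, so that its counts are less certain.

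SDHC, the other anchor, was called in all 3 lines but not in 1 direction. It stood at 152, 153 and 158 CPM with CTRL sh and 128 to 136 CPM with CPSF1 sh in LNCaP cells, at 165, 153 and 153 CPM and 133 to 151 CPM in LNCaP95, and at 144, 146 and 148 CPM and 159 to 174 CPM in 22Rv1 cells. The knockdown libraries were below the controls in LNCaP and LNCaP95 and above them in 22Rv1 cells. The changes were -0.22 ± 0.03 (adjusted p = 5.05e-05; -0.23 without sh1 replicate 3), -0.15 ± 0.05 (0.016) and 0.16 ± 0.04 (0.014). The LNCaP95 call ended under library size scaling (-0.06, adjusted p = 0.252) and without CTRL sh replicate 1 (0.095), and the 22Rv1 call without CTRL sh replicate 1 (0.0727) or 2 (0.0586) and with CPSF1 sh1 alone (0.0718). Malate dehydrogenase MDH1, which is cytosolic, rose in LNCaP (0.21 ± 0.05; 0.20 without sh1 replicate 3), and mitochondrial MDH2 in LNCaP (0.23 ± 0.03; 0.24 without sh1 replicate 3) and 22Rv1 cells (0.12 ± 0.04). In LNCaP95, MDH1 was below the threshold, although its knockdown libraries all lay above the controls. It passed there with library size scaling (0.18, adjusted p = 0.00152), CPSF1 sh2 alone (0.14, 0.00772) and the hairpins as separate groups (0.10, 0.0152). The MDH2 call in 22Rv1 ended under 7 of 21 alternatives (adjusted p from 0.00269 to 0.108), among them without CTRL sh replicate 1 (0.108), 2 (0.0951) or 3 (0.0761) and without CPSF1 sh2 replicate 2 (0.0585).

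Of the kinases and phosphatases that set the state of pyruvate dehydrogenase, none was called higher over both hairpins, and called lower were 3 of 5 in LNCaP (31% of all genes), 4 of 5 for LNCaP95 (33.7%) and 2 of 6 for 22Rv1 cells (14.3%). PDK2 went in LNCaP cells from 50.5, 53.1 and 50.2 CPM to 30.4, 30.5 and 30.6 with sh1 and 30.7, 34.6 and 31.1 with sh2. In LNCaP95 cells it held 18.7, 15.8 and 18.0 CPM with CTRL sh and 15.6 to 19.1 CPM with CPSF1 sh, and in 22Rv1 cells 45.7, 45.5 and 38.8 CPM and 37.6 to 43.9 CPM. The LNCaP groups were wide apart and the others overlapped. The change was -0.70 ± 0.05 in LNCaP (adjusted p = 6.81e-08; -0.69 without sh1 replicate 3), -0.05 ± 0.09 in LNCaP95 (0.607) and -0.10 ± 0.07 in 22Rv1 cells (0.286). The LNCaP effect differed from that in LNCaP95 by 0.66 ± 0.10 (3.06e-06) and from that in 22Rv1 by 0.61 ± 0.09 (6.50e-06).

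PDK4 fell in 22Rv1 cells, from 59.3, 64.5 and 63.5 CPM to 49.2, 47.3 and 46.4 with sh1 and 52.4, 51.2 and 55.2 with sh2, with no overlap (-0.31 ± 0.06, adjusted p = 0.00219). In LNCaP cells PDK4 reached 3.77 CPM in CPSF1 sh1 replicate 3, the library that stood apart, and 0.0895 CPM or less in the other 8 libraries. PDK1, the kinase that the list leaves out, fell in all lines, by 1.39 in LNCaP (-1.35 without sh1 replicate 3), 1.26 in LNCaP95 and 0.88 in 22Rv1 cells on the log2 scale. The phosphatases were called in LNCaP95 cells, where the catalytic PDP2 changed by -0.54 ± 0.07, PDP1 by -0.28 ± 0.08 and the regulatory PDPR by -0.41 ± 0.05. PDPR was called in LNCaP cells as well (-0.13 ± 0.05, and -0.14 without sh1 replicate 3), a call that ended under 10 of 21 alternatives (adjusted p from 0.0174 to 0.23), among them DESeq2 (0.0791) and without CTRL sh replicate 2 (0.23) or 3 (0.0864). In 22Rv1 cells PDPR changed by 0.16 ± 0.08, below the threshold, and was called higher with CPSF1 sh2 alone (0.26, adjusted p = 2.84e-05) and without CPSF1 sh1 replicate 3 (0.21, 0.00411). The PDP1 call in LNCaP95 ended with library size scaling (0.0523).

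Set side by side per kb of exon, the 4 kinases gave each line its own mixture. In LNCaP CTRL sh libraries PDK3 made 39.0%, PDK2 33.5% and PDK1 27.5% of their summed level. In LNCaP95 PDK3 made 69.9% and PDK2 5.77%, and in 22Rv1 cells PDK4 made 48.6%, PDK2 28.3% and PDK3 18.1%. PDK1 has the longest deposited exon length of the 4, which lowers its share on this scale. The summed level was 36.0 ± 1.90 CPM per kb (mean ± SD, n = 3) in LNCaP CTRL sh cells, 19.4 ± 0.350 with sh1 and 20.6 ± 1.78 with sh2. In LNCaP95 it was 71.1 ± 3.01, then 47.8 ± 1.71 and 40.6 ± 1.46, and in 22Rv1 cells 35.9 ± 0.963, then 28.4 ± 1.07 and 28.7 ± 0.463. Each knockdown library lay below each control library of its line, from 18.7 to 22.2 against 33.9 to 37.7 CPM per kb in LNCaP, from 39.0 to 49.6 against 68.8 to 74.5 in LNCaP95 and from 27.4 to 29.5 against 35.3 to 37.1 in 22Rv1 cells. These sums are a description, without a test.

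**Figure D5:**
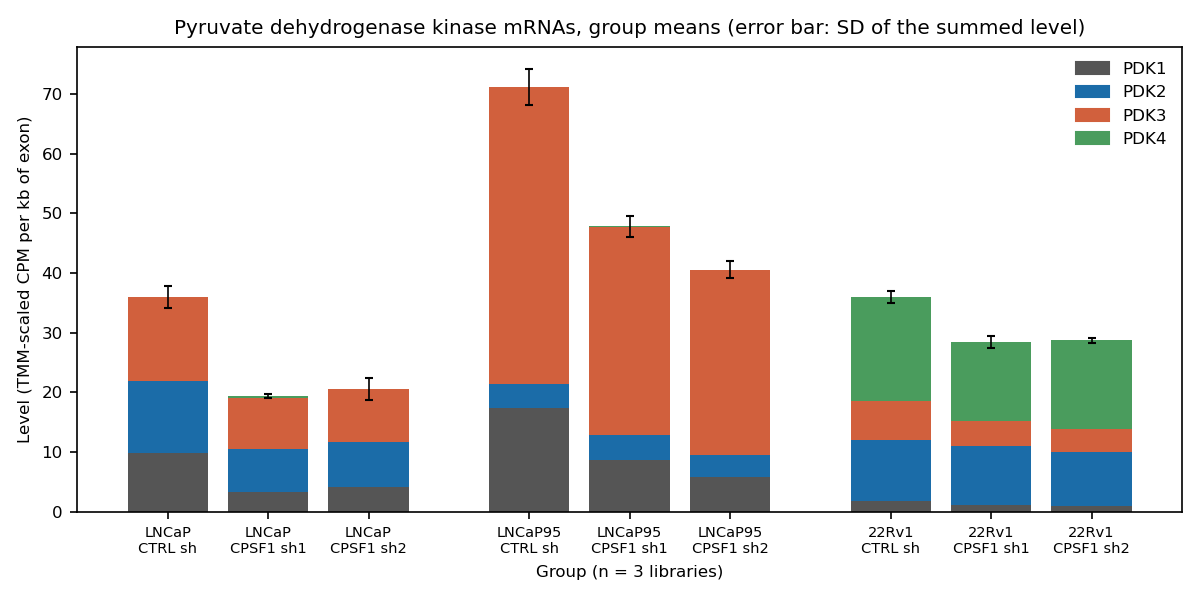
Level of PDK1, PDK2, PDK3 and PDK4 in each group, in TMM-scaled CPM per kb of exon, as stacked group means (n = 3 libraries), with error bars for the SD of the sum. PDK3 is the largest block in LNCaP95, PDK4 is visible as a large block in 22Rv1 cells alone, and the stacks with CPSF1 sh1 and sh2 are lower than those with CTRL sh in each line.

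To set the hairpins against each other, each line was fitted with its 3 groups. Against CTRL sh, CPSF1 sh1 gave 23 of 35 called members in LNCaP (62.6% of all genes), 26 of 35 for LNCaP95 (66.4%) and 12 of 37 for 22Rv1 cells (19.9%). CPSF1 sh2 gave 25 (64.6%), 30 (73.4%) and 22 (40%). The levels with CPSF1 sh1 and CPSF1 sh2 differed for 6 of 35 members in LNCaP (14.8% of all genes), 14 of 35 for LNCaP95 (34.1%) and 6 of 37 for 22Rv1 cells (11.3%). Without sh1 replicate 3, 4 members differed in LNCaP. Called in the same direction with both hairpins were 20 members in LNCaP (53.2% of all genes), 26 for LNCaP95 (59.8%) and 12 for 22Rv1 cells (17.1%), and called in opposite directions were 0 (0.279%, 0.224% and 0.0682% of all genes). Where the hairpins differed, sh2 was further from CTRL sh than sh1 for 5 of 6 members in LNCaP, 13 of 14 for LNCaP95 and 6 of 6 for 22Rv1 cells, against 52.5%, 88.1% and 89.4% of all genes that differed. PCK2 had the largest difference in each line, sh2 minus sh1, at 0.52 in LNCaP (adjusted p = 5.41e-08), -0.58 in LNCaP95 (3.22e-08) and -0.53 in 22Rv1 cells (0.000135). Whether this difference itself differed between lines was not tested. CPSF1 mRNA differed between the hairpins by -0.14, 0.00 and 0.07, below the threshold (adjusted p = 0.0773, 0.998 and 0.578).

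Other genes of these pathways are given by count, to be read against the shares of all genes called higher (31.1% for LNCaP, 33.2% for LNCaP95 and 12.7% for 22Rv1 cells) and lower (31%, 33.7% and 14.3%). Of the other cycle and pyruvate genes, LNCaP cells had 1 of 6 higher and 5 lower, LNCaP95 cells 1 of 6 higher and 4 lower, and 22Rv1 cells 1 of 7 higher and 3 lower. Besides PDK1 these included lactate dehydrogenase LDHA, at -0.44 ± 0.04, -0.61 ± 0.05 and -0.37 ± 0.05 in the 3 lines, and DHTKD1, an enzyme of lysine breakdown, at -0.32 ± 0.05, -0.64 ± 0.09 and -0.08 ± 0.06, the last below the threshold. Without sh1 replicate 3 the LNCaP values were -0.43 for LDHA and -0.34 for DHTKD1.

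Of the genes for entry of glutamine, glutamate and aspartate, LNCaP and LNCaP95 cells each had 3 of 7 higher and 2 lower, and 22Rv1 cells 1 higher and 2 lower. Glutamate dehydrogenase GLUD1 changed by 0.38 ± 0.03 in LNCaP, -1.19 ± 0.09 for LNCaP95 and 0.05 ± 0.04 for 22Rv1 cells, the last below the threshold. The mitochondrial aspartate transaminase GOT2 rose in each line, by 0.63 ± 0.03, 0.45 ± 0.06 and 0.23 ± 0.04, and the alanine transaminase GPT2 changed by -0.26 ± 0.08, -0.81 ± 0.07 and -0.22 ± 0.04, each past the threshold. The LNCaP values of GLUD1, GOT2 and GPT2 were 0.38, 0.64 and -0.22 without sh1 replicate 3.

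Of the mitochondrial carriers of cycle intermediates, 5 of 7 were higher and 0 lower in LNCaP, 3 of 6 higher and 1 lower in LNCaP95, and 2 of 7 higher and 1 lower in 22Rv1 cells. The aspartate-glutamate carrier SLC25A13 rose in each line, by 0.45 ± 0.05, 1.21 ± 0.07 and 0.30 ± 0.05. Its paralog SLC25A12 rose in LNCaP95 (0.59 ± 0.08) and fell in 22Rv1 cells (-0.34 ± 0.08), and the oxodicarboxylate carrier SLC25A21 rose in LNCaP cells (0.57 ± 0.11), where SLC25A13 and SLC25A21 changed by 0.45 and 0.57 without sh1 replicate 3.

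Of the genes for lipoylation and succinate dehydrogenase assembly, LNCaP cells had 2 of 7 higher and 1 lower, LNCaP95 cells 1 and 1, and 22Rv1 cells 0 and 1. Lipoic acid synthase LIAS changed by 0.33 ± 0.07, -0.33 ± 0.11 and -0.25 ± 0.08 in the 3 lines, each past the threshold. Of the 5 genes of the branched-chain keto acid dehydrogenase, a complex built like that of pyruvate, LNCaP cells had 2 higher and 3 lower, LNCaP95 cells 0 and 3, and 22Rv1 cells 0 and 1. Its kinase BCKDK changed by -0.56 ± 0.06 and its alpha subunit BCKDHA by -0.58 ± 0.12 in LNCaP, and by -1.19 ± 0.15 and -1.10 ± 0.14 in LNCaP95 cells. The acyltransferase DBT changed by -0.09 ± 0.03, -0.36 ± 0.06 and -0.18 ± 0.06 in the 3 lines, each past the threshold, and was the one gene of the 5 called in 22Rv1 cells. That 22Rv1 call lay close to the threshold (adjusted p = 0.0498). Leaving out sh1 replicate 3 gave LNCaP changes of 0.36 for LIAS, -0.56 for BCKDK, -0.56 for BCKDHA and -0.10 for DBT, each past the threshold.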

How the data were processed

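The deposited table holds raw counts of RNA-seq fragments on exons for 20268 gene symbols in 27 libraries, with coordinates in GRCh37 (hg19) and exon lengths. Per the methods and labels, the authors prepared stranded mRNA libraries, sequenced them paired-end, aligned reads with HISAT2 2.1.0 and made the counts with featureCounts in reverse-stranded mode with Ensembl annotation. The submitters' processing notes name Subread 2.0.3, and the study's methods name another version. All sample columns were matched to samples by title.

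Counts were analysed in R 4.3.3 with edgeR 4.0.16 (quasi-likelihood test in its earlier form, TMM, genes kept when above 2 CPM in each library fitted, Benjamini-Hochberg adjustment over all genes tested, threshold 0.05). Each line was fitted on its own, hairpins with 3 groups per line, differences between lines over all 27 libraries and control groups over the 9 CTRL sh libraries. Between replicates, the chi-square over its degrees of freedom ranged from 1.39 to 7.31 (1 for counting error alone), so no library was a copy of another of its group. The fits were tested on simulated data. The floor of 3 counts set against counts of 0 covers counting error only.

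The genes described in full are those called in the same direction in all lines, the 3 largest rises and falls per line, the 2 largest differences per pair of lines and, each way, per pair of control groups, and the PDK genes; PC, called in opposite directions in LNCaP and LNCaP95, was added after its values were seen. The members and lists were chosen with earlier results of these data known. RefSeq promoters matched 34 of 37 members. Alternatives were DESeq2 1.42.0, RLE or library size scaling, edgeR's current form, 3 other filters, each hairpin alone or as its own group, a replicate block, a threshold of 0.01 and each library left out. Some genes of the marker and pathway lists are not reported here.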

Additional observations from a re-analysis of the deposited data

Results flagged for a closer look

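By edgeR's interaction test, the effect of CPSF1 knockdown differed between LNCaP95 and LNCaP for 20 of 35 members (50.9% of all genes). It differed for 16 between 22Rv1 and LNCaP (40.4%) and for 17 between 22Rv1 and LNCaP95 (53.7%). Such differences were thus common among all genes. Of the members that differed, those listed were called in opposite directions or had the largest differences of a pair of lines, and PDK2 was added as a PDK gene. The values below are log2 differences of the knockdown effects. For LNCaP95 minus LNCaP they were -0.77 for PDHX, 0.66 for PDK2, -0.69 for MPC1, -0.83 for MPC2 and -0.33 for PC (adjusted p = 0.00193). For 22Rv1 minus LNCaP they were 0.40 for SDHC (adjusted p = 3.65e-06), -0.34 for PDHX, 0.61 for PDK2, -0.71 for MPC1, -0.82 for MPC2 and -0.38 for PC. For 22Rv1 minus LNCaP95 they were 0.78 for IDH3G, 0.68 for SUCLG2 and 0.31 for SDHC. Without LNCaP CPSF1 sh1 replicate 3 these values lay between -0.83 and 0.79, and all kept an adjusted p-value below the threshold. PDHX, MPC1, MPC2, PC and SDHC are those with calls in opposite directions in the lines compared. LNCaP95 cells were grown without phenol red, so that for the pairs with LNCaP95 the line and the medium cannot be told apart.

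PDK4 (39 counts) and ME3 (6 counts) had signal in LNCaP CPSF1 sh1 replicate 3 although both were below the expression filter in LNCaP cells and had no count in the LNCaP CTRL sh libraries. In the same library 91 of 91 genes restricted to 22Rv1 cells, PDK4 among them, had counts.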

How the results depend on the processing

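No direction of a called result was reversed under any alternative run. Among the counts per line, those that moved by more than 1.5 times were members higher in LNCaP95 (7, and 12 with library size alone), members higher in 22Rv1 (4, and 2 with CPSF1 sh1 alone, 9 with CPSF1 sh2 alone and 2 at an adjusted p below 0.01) and members that differed between hairpins in LNCaP (6, and 3 with DESeq2). Of the differences between lines by direction, with library size alone, members with a higher change in LNCaP95 than in LNCaP went from 4 to 9 and those with a lower change in 22Rv1 than in LNCaP95 from 6 to 10. With 1 library left out, members higher in 22Rv1 ranged from 2 (without CTRL sh replicate 1 or 2) to 7 (without CPSF1 sh1 replicate 3), members that differed between hairpins in LNCaP from 3 (without CPSF1 sh1 replicate 1 or 2) to 6, and those in 22Rv1 from 2 (without CPSF1 sh2 replicate 3; 3 without sh2 replicate 1 or sh1 replicate 2) to 6. The cause was not tested. For the single members, 5496 values stayed called or stayed not called with a library left out, 174 lost their call and 36 gained one. Under the other alternatives 3668 stayed called or not called as before, 90 lost their call and 62 gained one.

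For samples with the same replicate number, correlations of deviations ran from -0.057 to 0.250 in LNCaP and from -0.239 to 0.283 in LNCaP95. In 22Rv1 they ran from -0.115 to 0.1999. Above 0.1 were 3, 3 and 1 of 9 pairs in the 3 lines. Samples with different numbers were not compared, so whether the numbers pair the samples cannot be told. With the replicate number as a block, LNCaP cells had 16 members higher and 8 lower, LNCaP95 cells 7 and 19 and 22Rv1 cells 4 and 10, and 19, 16 and 17 differed between lines. With both hairpins as 1 group, the biological coefficients of variation were 4.95, 7.09 and 6.08% in the 3 lines, which includes differences between the hairpins. With the hairpins as separate groups they were 3.25, 3.87 and 4.55%. Small changes of low genes such as PDP1 (16.2 to 18.5 CPM with CTRL sh in LNCaP) are the least certain.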
